A study of Mus musculus with 12 samples.

Results

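The endoplasmic reticulum (ER) unfolded protein response was examined through 10 genes in the livers of ethionine-treated and untreated ob/ob mice. The genes were Hspa5, Hsp90b1, Pdia4, Pdia6, Dnajb9, Sdf2l1, Xbp1, Herpud1, Creld2 and Edem1. They were chosen by name, as ER chaperones and known targets of this response, and matched to Ensembl identifiers through their symbols. All 10 were found among the 56205 genes of the count table. All 10 also remained among the 13416 genes tested once rarely counted genes were removed, so none was dropped.

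RNA came from whole livers of 12 ob/ob mice described as male, 1 library per mouse, and was poly(A)-selected. Both groups carried the ob mutation of the leptin gene on a C57BL/6J background and ate standard chow, and the study's methods describe them as young adults when treatment began. The FLO group (6 mice) had chow alone. The fibrotic group (6 mice) also received DL-ethionine, the ethyl analogue of methionine, given as 0.165% in drinking water for 2 weeks. The labels also name an injection of 0.15%, and the study's methods give the lower strength in water for a shorter time, so the exposure is uncertain. The name fibrotic is that of the sample titles, and fibrosis itself was not measured here. The study saw no change of Col1a1 in ob/ob mice given ethionine. Libraries held 17815568 to 24814263 counts. The library labelled FLO replicate 3 held 3773 counts of Xist, against at most 4 in the other 11, and 4 counts of the Y-linked Ddx3y, which goes against the stated sex. Fibrotic replicate 4 stood apart, being the lowest of its group for 29.8% of tested genes and the highest for 28.5%, and had the largest normalization factor (TMM, which corrects for composition, 1.2 against 0.913 to 1.11 in the others). Whole liver mixes hepatocytes with all other liver cells, and in such samples fewer cells of a type and less RNA per cell cannot be told apart.

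Secreted and membrane proteins fold inside the ER. When unfolded proteins accumulate there, the sensors IRE1 (gene Ern1), PERK (Eif2ak3) and ATF6 (Atf6) start signals to the nucleus. IRE1 splices the Xbp1 message into one that encodes an active transcription factor, ATF6 is cut to release another, and PERK slows translation and favours that of Atf4. The factors raise chaperones, folding enzymes and the machinery that degrades misfolded proteins. Hepatocytes secrete most plasma proteins and depend heavily on this system.

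Of the 10 genes, Pdia6 and Creld2 fell in fibrotic livers and Dnajb9 rose, by a narrow margin. Hspa5, which encodes BiP, the central ER chaperone and a customary marker of ER stress, had means of 471 in fibrotic and 457 in FLO libraries, in CPM (counts scaled to 1e+06 of the normalized library size). To be called, a gene needed an adjusted p no higher than 0.01 in the edgeR quasi-likelihood test and a log2 fold change beyond 0.5 in either direction. By that rule 1 of the 10 was called higher, where 15.9% of all tested genes were, and 2 of the 10 were called lower, where 14.0% of all tested genes were. These shares are near the background, so the number of calls does not set the list apart. The median log2 fold change of the 10 genes was -0.32 and that of all tested genes 0.03.

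The stretches of promoter below are shown because the ER stress response element (ERSE) is the site through which ATF6 and XBP1 are known to act on chaperone genes. The ERSE was searched as CCAAT, then 9 bases of any kind, then CCACG. A second form, ERSE-II, was searched as ATTGG, then 1 base of any kind, then CCACG. Both strands of the RefSeq windows from 250 bases before to 50 bases after each gene's start were searched (build GRCm38.p6), and all 10 genes had a window. Each line gives the 160 bases before the start, 5′ to 3′ on the gene's strand, with matches in capitals. The first lines are genes with a match, and the last lines, Dnajb9 and Pdia4, are shown as the members with a positive log2 fold change over 0.1 and hold none. These last lines were thus picked by their values. Sdf2l1 (-0.09), Xbp1 (-0.32) and Edem1 (-0.33) also hold none and are not printed.
Hspa5, chr2:34771930-34772089, plus strand: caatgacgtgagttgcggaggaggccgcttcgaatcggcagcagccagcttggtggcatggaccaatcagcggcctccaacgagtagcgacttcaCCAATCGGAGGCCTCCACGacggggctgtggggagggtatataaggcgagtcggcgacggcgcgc
Hsp90b1, chr10:86705445-86705604, minus strand: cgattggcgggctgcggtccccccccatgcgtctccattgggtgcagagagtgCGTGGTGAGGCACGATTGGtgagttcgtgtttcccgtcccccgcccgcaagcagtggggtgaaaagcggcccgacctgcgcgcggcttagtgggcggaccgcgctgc
Pdia6, chr12:17266429-17266588, plus strand: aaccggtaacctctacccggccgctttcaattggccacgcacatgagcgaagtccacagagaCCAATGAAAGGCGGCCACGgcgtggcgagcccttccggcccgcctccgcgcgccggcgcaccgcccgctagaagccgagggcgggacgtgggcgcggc
Creld2, chr15:88819486-88819645, plus strand: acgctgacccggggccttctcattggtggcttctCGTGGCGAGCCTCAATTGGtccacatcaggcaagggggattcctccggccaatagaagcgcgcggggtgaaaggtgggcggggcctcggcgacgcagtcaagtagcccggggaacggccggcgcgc
Herpud1, chr8:94386269-94386428, plus strand: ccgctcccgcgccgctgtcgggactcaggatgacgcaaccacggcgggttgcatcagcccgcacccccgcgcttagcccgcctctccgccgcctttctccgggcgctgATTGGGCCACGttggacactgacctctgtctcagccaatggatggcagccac
Dnajb9, chr12:44210069-44210228, minus strand: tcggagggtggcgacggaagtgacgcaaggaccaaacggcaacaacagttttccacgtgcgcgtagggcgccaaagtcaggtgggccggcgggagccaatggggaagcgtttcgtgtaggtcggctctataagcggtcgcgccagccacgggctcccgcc
Pdia4, chr6:47813513-47813672, minus strand: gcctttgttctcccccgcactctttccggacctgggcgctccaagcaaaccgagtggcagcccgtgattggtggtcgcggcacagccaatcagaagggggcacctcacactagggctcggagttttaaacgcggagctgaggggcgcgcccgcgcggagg

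An ERSE was present in 4 of the 10 windows, those of Hspa5, Hsp90b1, Pdia6 and Creld2, whereas 0.179% of the 10075 tested genes with a window held one. The match lay 65 to 47 bases before the start in Hspa5 and 98 to 80 bases before it in Pdia6. In Creld2 it was on the opposite strand, 126 to 108 bases before the start. Hsp90b1 held 2 matches, the one printed (107 to 89 bases before the start, opposite strand) and another farther away (212 to 194 bases). Herpud1 held the 1 ERSE-II, 52 to 42 bases before the start, a form found in 0.0794% of tested genes. Pdia4, Dnajb9, Sdf2l1, Xbp1 and Edem1 had neither form in the window, and none of the 10 had the unfolded protein response element TGACGTGG, which 0.973% of tested genes held. The core CCACG alone says little, since it occurred in 90.0% of the members and in 51.1% of tested genes. A match is a run of letters, not a measured binding site.

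The 4 members that hold the ERSE ran from the lowest value of the list to near 0. Their log2 fold changes were 0.04 (Hspa5), -0.34 (Hsp90b1), -0.64 (Pdia6) and -0.92 (Creld2). Members with neither form had values of both signs, from -0.33 (Edem1) to 0.51 (Dnajb9), and Herpud1, with the ERSE-II, was at -0.47. A link between motif and direction was not tested.

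The Hsp70 system of the ER lumen comprises Hspa5 and its partners. Hspa5 ran from 309 to 691 CPM (median 414) in FLO and from 439 to 515 CPM (median 458) in fibrotic libraries. All 6 fibrotic libraries lay inside the FLO range and above its median, and the FLO libraries were spread far more widely. The log2 fold change was 0.04 (SE 0.17; edgeR, adjusted p = 0.849), and an interval of 2 SE on each side ran from -0.29 to 0.37. Its sign turned negative without FLO replicate 4, 5 or 6, the lowest value being -0.05.

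Dnajb9 encodes ERdj4, a J-domain partner of BiP that also restrains IRE1. It ran from 43.2 to 73.7 CPM (median 49.0) in FLO and from 63.5 to 89.7 CPM (median 76.7) in fibrotic libraries. All 6 fibrotic libraries exceeded the FLO median and 4 exceeded every FLO library, so the groups overlapped. The increase was 1.42-fold, or 0.51 in log2 terms (SE 0.13; edgeR, adjusted p = 0.00448; two-sided exact permutation p = 0.00866). This call sat at the fold limit. Without fibrotic replicate 4 or 5 the Dnajb9 value was 0.50 or 0.46, and without FLO replicate 2, 4, 5 or 6 it was 0.48, 0.45, 0.45 or 0.48, none of them called. DESeq2 and RLE normalization, which scale by median ratios, gave 0.49 each and upper quartile normalization 0.48, also short of the limit.

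Sdf2l1, a lumenal component of the BiP chaperone cycle, was the member at the lowest level. Its CPM ran from 8.62 to 15.1 (median 9.96) in FLO and from 5.48 to 14.7 (median 10.3) in fibrotic libraries. The groups overlapped across most of their range, with 3 fibrotic libraries above and 3 below the FLO median. The log2 fold change was -0.09 (SE 0.20; edgeR, adjusted p = 0.732), and 2 SE on each side spanned -0.49 to 0.31.

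Hsp90b1 encodes GRP94, the Hsp90 chaperone of the ER, which folds integrins and Toll-like receptors. It ran from 277 to 449 CPM (median 344) in FLO and from 248 to 293 CPM (median 284) in fibrotic libraries. Every fibrotic library was below the FLO median and 2 were below all FLO libraries. The log2 fold change of -0.34 (SE 0.11) did not pass the rule (adjusted p = 0.0164 by edgeR; two-sided exact permutation p = 0.0108).

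The thiol-disulfide enzymes and Creld2 had fold changes of both signs. Pdia4 encodes ERp72, a protein disulfide isomerase. It ran from 88.7 to 172 CPM (median 120) in FLO and from 155 to 178 CPM (median 173) in fibrotic libraries. Each fibrotic library exceeded the FLO median, but FLO replicates 1 (172 CPM) and 3 (159 CPM) reached the fibrotic range. The log2 fold change of 0.40 (SE 0.14) was not called (adjusted p = 0.0211 by edgeR), although it was without FLO replicate 1 (0.50, adjusted p = 0.00379) and with library size alone (0.58).

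Pdia6 encodes P5, a disulfide isomerase that binds BiP and dampens IRE1 and PERK signalling. It ran from 176 to 210 CPM (median 186) in FLO and from 90.8 to 138 CPM (median 125) in fibrotic libraries. The groups did not overlap, and even the highest fibrotic library was well under the lowest FLO library. The level was 1.56-fold lower, or -0.64 in log2 terms (SE 0.10; edgeR, adjusted p = 5.5e-05). The call held in all 12 fits that left out a library, with Pdia6 values from -0.68 to -0.56, but not with library size alone as the scaling (-0.47).

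Creld2, a secreted and ER-resident protein that is induced early in ER stress, fell most. It ran from 21.3 to 41.9 CPM (median 25.5) in FLO and from 12.6 to 15.8 CPM (median 15.0) in fibrotic libraries. All 6 fibrotic libraries were below every FLO library. The level was 1.89-fold lower, or -0.92 in log2 terms (SE 0.15; edgeR, adjusted p = 8.6e-05). Leaving out any of the 12 libraries gave Creld2 values from -0.99 to -0.76.

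Xbp1 encodes the transcription factor activated by IRE1. It ran from 101 to 138 CPM (median 114) in FLO and from 86.1 to 98.8 CPM (median 93.3) in fibrotic libraries. The groups did not overlap, yet the difference was small, at -0.32 in log2 terms (SE 0.08; edgeR, adjusted p = 0.00428; exact permutation p = 0.00216, the smallest this test can give). It passed the limit on p and not that on fold change, so it was not called. Counts per gene add the spliced and unspliced messages together, so IRE1 activity itself was not measured.

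Herpud1 and Edem1 serve ER-associated degradation. Herpud1 encodes HERP, a membrane protein that organizes the ubiquitin ligase of this pathway and is itself short-lived. It ran from 409 to 528 CPM (median 446) in FLO and from 173 to 459 CPM (median 346) in fibrotic libraries. Here the fibrotic group was the more variable one, with replicates 1 (208 CPM) and 4 (173 CPM) far down and replicates 2 (459 CPM) and 3 (443 CPM) inside the FLO range. The log2 fold change of -0.47 (SE 0.21) was not called (adjusted p = 0.0669 by edgeR). Edem1, a lectin that routes misfolded glycoproteins to degradation, ran from 148 to 226 CPM (median 181) in FLO and from 129 to 154 CPM (median 148) in fibrotic libraries. All 6 fibrotic libraries were below the FLO median, and its log2 fold change of -0.33 (SE 0.11) was not called (adjusted p = 0.0172 by edgeR).

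Without overlap between groups were 3 members, all lower in fibrotic libraries (Pdia6, Xbp1 and Creld2), against 15.1% of all tested genes apart in that direction. None of the 10 was apart in the other direction, where 15.3% of tested genes were.

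**Figure D1:**
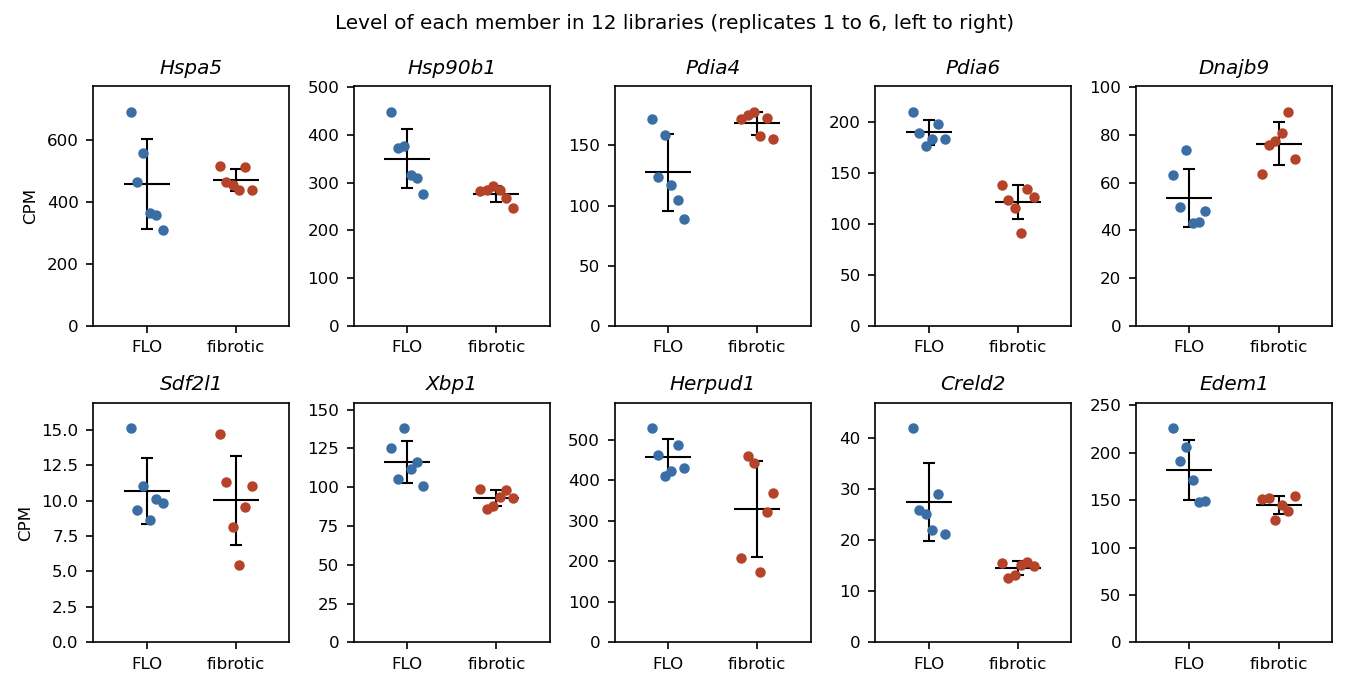
CPM of the 10 members (vertical axes, each from 0) in 6 FLO and 6 fibrotic libraries, with replicates 1 to 6 from left to right, the mean as a dash and the SD as bars. Pdia6, Xbp1 and Creld2 do not overlap between groups, whereas Hspa5 runs from 309 to 691 CPM in FLO and stays between 439 and 515 CPM in fibrotic libraries.

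Levels were also set per length, dividing CPM by the longest GENCODE M21 transcript of each gene. In FLO livers Herpud1 was highest, at 234 ± 23.1 CPM per kb (SD, n = 6). Hspa5 (125 ± 39.5), Hsp90b1 (109 ± 19.2) and Pdia6 (87.3 ± 5.77 CPM per kb) followed, and Hspa5 and Hsp90b1 differed by less than the spread of either. Sdf2l1 was lowest at 9.63 ± 2.10 CPM per kb, which still exceeded the level per length of 70.1% of tested genes. In fibrotic livers Hspa5 stood at 128 ± 9.51 CPM per kb and Pdia6 at 55.9 ± 7.81, below Pdia4 at 70.3 ± 4.05 CPM per kb, which in FLO livers had been at 53.2 ± 13.3.

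Ratios between members within a library do not depend on how libraries are scaled. The pairs that follow were chosen after their values were seen and are given as descriptions. The ratio of Pdia4 to Pdia6 CPM ran from 0.486 to 0.904 in FLO and from 1.23 to 1.75 in fibrotic libraries. Dnajb9 over Creld2 ran from 1.50 to 2.94 in FLO and from 4.07 to 6.00 in fibrotic libraries. In both cases the balance between a pair of genes of the same response lay, in every fibrotic liver, outside the FLO range. Hspa5 over Pdia6 was also apart, at 1.69 to 3.29 in FLO and 3.49 to 4.84 in fibrotic libraries. Pdia4 over Hspa5 ran from 0.248 to 0.322 in FLO and from 0.335 to 0.394 in fibrotic libraries. Hspa5 over Hsp90b1 was not clearly apart, at 1.11 to 1.54 in FLO and 1.54 to 1.92 in fibrotic libraries. Pdia6 and Creld2 did not overlap between groups by themselves, so ratios with them were likely to be apart. The share of other gene pairs that are apart was not computed.

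The co-chaperone Hyou1, or GRP170, releases nucleotide from BiP and so sets its cycle. Hyou1 ran from 57.0 to 194 CPM (median 94.4) in FLO and from 46.8 to 65.7 CPM (median 54.1) in fibrotic libraries, with 5 fibrotic libraries below all FLO libraries. Hyou1 fell by 0.96 on the log2 scale (SE 0.24; edgeR, adjusted p = 0.00382). The call was lost when fibrotic replicate 4 was left out (edgeR, adjusted p = 0.0119), when rarely counted genes were kept (0.0169) and with library size alone (0.012). Hyou1 over Hspa5 ran from 0.185 to 0.281 in FLO and from 0.104 to 0.128 in fibrotic libraries. No library of either group reached the other group's range of this ratio.

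**Figure D2:**
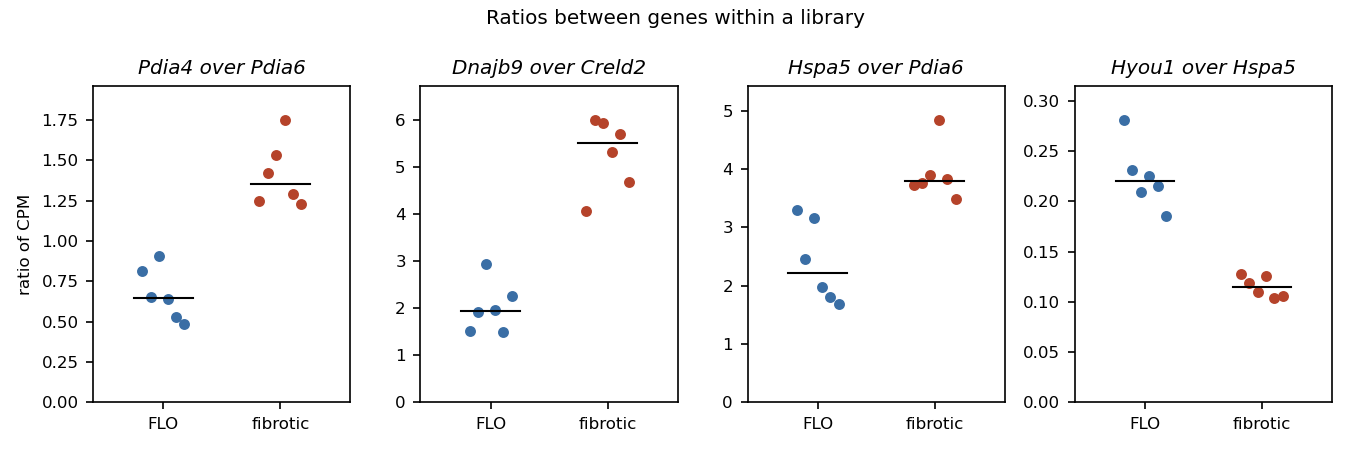
Ratio of CPM between a pair of genes within each of the 6 FLO and 6 fibrotic libraries (vertical axes from 0, line at the median). In all 4 ratios shown, which were picked after their values were seen, the groups are apart. For example, Pdia4 over Pdia6 is at most 0.904 in FLO and at least 1.23 in fibrotic libraries. Hspa5 over Hsp90b1, not shown, is not clearly apart.

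Most members varied more among FLO livers than among fibrotic ones. The SD of log2 CPM was larger in FLO for 7 of the 10 members, against 39.5% of all tested genes, and the exceptions were Pdia6, Sdf2l1 and Herpud1. The median SD of the 10 genes was 0.27 in FLO and 0.12 in fibrotic libraries, while over all tested genes it was 0.21 and 0.25. For Hspa5 the SD was 0.44 in FLO and 0.11 in fibrotic libraries, and for Pdia4 it was 0.36 and 0.08. FLO replicate 1 was the highest of its group in 8 of the 10 members, a place it took for 21.4% of all tested genes. The same liver thus led for chaperones, Creld2 and degradation genes alike. FLO replicate 6 was the lowest in 5 of the 10, against 18.9% of all tested genes. FLO replicates 4 and 6 lay in the lower part of the group (ranks 1 to 3) for all 10. Without FLO replicate 1 the median SD of the members in FLO was 0.19, and 7 of the 10 still had the larger SD there. Nothing in the labels sets these mice apart. Because members of a response tend to move together in a liver, these counts do not rest on 10 independent observations.

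**Figure D3:**
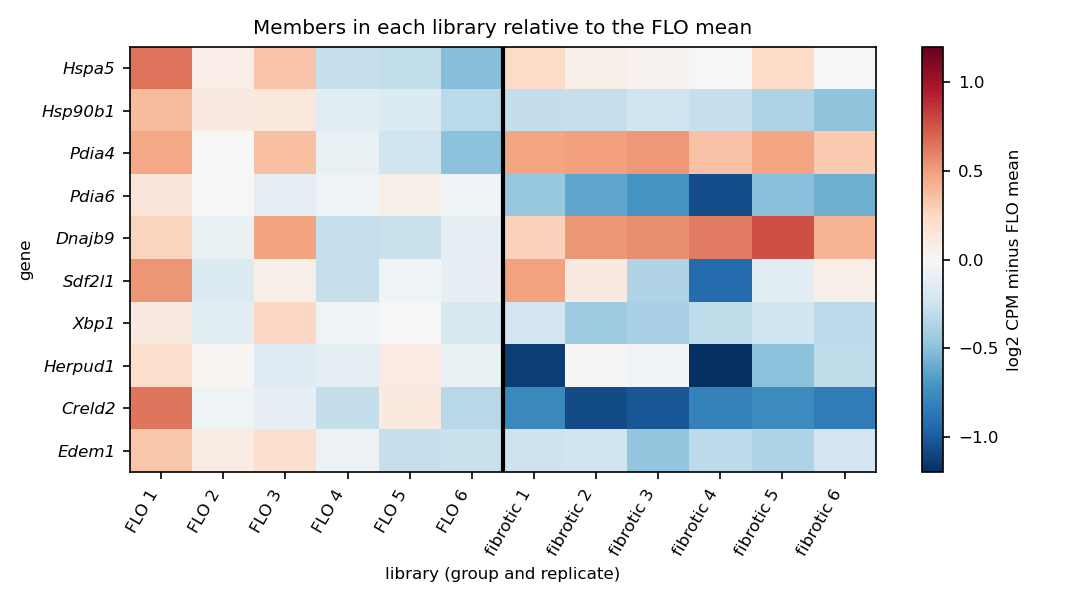
Log2 CPM of each member (rows) minus its FLO mean in each library (columns, FLO left of the line, fibrotic right), in colour from -1.2 (blue) to 1.2 (red). FLO replicate 1 is the highest FLO library for 8 of 10 members. In all fibrotic libraries Pdia4 and Dnajb9 are above the FLO mean, while Hsp90b1, Pdia6, Xbp1, Creld2 and Edem1 are below it.

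The wider folding and stress machinery was described with 83 further genes in 7 lists, all of which were tested. Of these, 5 were called higher (6.02%, against 15.9% of all tested genes) and 18 lower (21.7%, against 14.0%), with a median log2 fold change of -0.19. Leaving out the library labelled FLO replicate 3 gave 1 member higher and 2 lower, as with it, and a member median of -0.28. Without FLO replicate 5 the wider genes called higher were 3. The split also depended on scaling. With library size alone and no TMM factors, the median of all tested genes shifted from 0.03 to 0.20, and the wider genes were called 11 higher and 7 lower, the members 2 higher and 1 lower. Relative to the median of all genes, the members' median was -0.35 under both scalings and that of the wider genes -0.22. Scaling shifts all genes nearly alike, so this difference could hardly change and is no check on the scaling.

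Disulfide and proline folding enzymes had the most lower calls of the 7 lists, 6 of 12 genes (against 14.0% of all tested genes). Of the 12, 1 was called higher (against 15.9%). Among them Creld1, a relative of Creld2, changed by -1.14 (SE 0.09; edgeR, adjusted p = 9.6e-08), from 64.7 ± 7.62 to 29.3 ± 2.15 CPM (SD, n = 6). The prolyl isomerase Fkbp11 fell by 1.26 on the log2 scale, at the low level of 5.13 CPM in FLO livers. Pdia3, the disulfide isomerase that serves glycoproteins, fell by 0.72, from 265 ± 34.5 to 161 ± 11.5 CPM (SD, n = 6). For each of these 3 genes every fibrotic library was below every FLO library. The 1 called higher was Txndc11 (0.60), a thioredoxin-like protein of the ER membrane, named after its value was seen.

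The lectin cycle holds glycoproteins in the ER until they fold. In it 2 of 7 genes were called lower (28.6%, against 14.0% of all tested genes) and 0 higher (against 15.9%). Calr, the lectin chaperone calreticulin, changed by -0.52 (SE 0.12; edgeR, adjusted p = 0.00165), and Ganab, the glucosidase II subunit that trims glycans for calreticulin, by -0.68. The call of Calr was lost without FLO replicate 1 (-0.46) or fibrotic replicate 4 (-0.43), which left 1 called gene in that list.

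Among lumenal co-chaperones 3 of 10 were called lower (against 14.0% of all tested genes) and 1 higher (against 15.9%), most at the fold limit. Besides Hyou1 these were Sec63 (-0.53) and Dnajb11 (-0.51) on the lower side and Dnajc1 (0.52) on the higher. Without FLO replicate 1 or fibrotic replicate 4 the list held 1 lower call, and without FLO replicate 5 it held 0 higher calls. Dnajc3, or p58IPK, an inhibitor of PERK, was lower in all 6 fibrotic libraries (129 ± 3.96 against 177 ± 23.5 CPM, SD, n = 6), but its log2 fold change of -0.46 was under the limit (adjusted p = 0.00041 by edgeR).

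ER-associated degradation had 5 of 17 genes called lower (29.4%, against 14.0% of all tested genes) and 0 higher (against 15.9%), with a median of -0.01. Derl2, a channel component of this pathway, fell by 0.91 (SE 0.13), Ufd1, which extracts substrates with VCP, by 0.64 and the lectin Erlec1 by 0.55. The other two were Vcp itself (-0.54), the ATPase that pulls substrates from the membrane, and Derl3 (-1.13) at only 1.79 CPM in FLO livers, both named after their values were seen. The call of Vcp was lost without FLO replicate 1, and that of Derl3 in 10 of the 12 leave-one-out fits, all but those without FLO replicate 3 or fibrotic replicate 5. Leaving out FLO replicate 1 or fibrotic replicate 4 brought the lower calls to 3, and the fit without FLO replicate 1 added 1 higher call. Translocation into the ER had 2 of 18 genes called lower (11.1%, against 14.0% of all tested genes) and 0 higher (against 15.9%). The 2 were the signal peptidase subunit Spcs3 (-0.88, SE 0.09) and the translocon-associated Ssr3 (-0.63, SE 0.09). Lower calls numbered 4 without FLO replicate 4 or without fibrotic replicate 6.

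Of the 9 genes of the sensors, related factors and their proteases, 1 was called higher (11.1%, against 15.9% of all tested genes) and 0 lower (against 14.0%). Ern1 differed by 0.30 (SE 0.13; edgeR, adjusted p = 0.0599), Eif2ak3 by 0.21 (0.0570) and Atf6 by 0.15 (0.263), none of them called. The 1 called higher was Mbtps2 (0.59), the site-2 protease that completes the cutting of ATF6, although its groups overlapped. It was named after its value was seen.

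The PERK and ATF4 arm belongs also to the wider amino acid stress response. In it 2 of 10 genes were called higher, near the 15.9% of all tested genes, and 0 lower (against 14.0%). These were Cebpb (0.98, SE 0.15), a transcription factor of many stress pathways, from 41.1 ± 8.23 to 81.1 ± 17.5 CPM (SD, n = 6), and Sesn2 (0.67), named after its value was seen. Sesn2 was not called in 6 of the 12 leave-one-out fits, those without FLO replicate 3, 4, 5 or 6 or fibrotic replicate 1 or 6, nor with limma-voom. The count for the list was 1 without FLO replicate 4, FLO replicate 5 or fibrotic replicate 1 and with limma-voom. Atf4 was higher in each fibrotic library than in any FLO library, at 77.9 to 111 CPM against 50.6 to 77.7, but its log2 fold change of 0.49 (SE 0.12; edgeR, adjusted p = 0.00255) fell just short of the limit. It passed without FLO replicate 3 (0.51) or 6 (0.54), or without fibrotic replicate 3 (0.53), 5 (0.54) or 6 (0.51). Ddit3 encodes CHOP, the pro-apoptotic factor of prolonged ER stress. Its level was low, at 3.40 ± 1.02 CPM in fibrotic and 4.46 ± 1.25 CPM in FLO libraries (SD, n = 6), with 48 to 126 counts per library. Ddit3 was not called (-0.39, SE 0.22, adjusted p = 0.147 by edgeR).

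**Figure D4:**
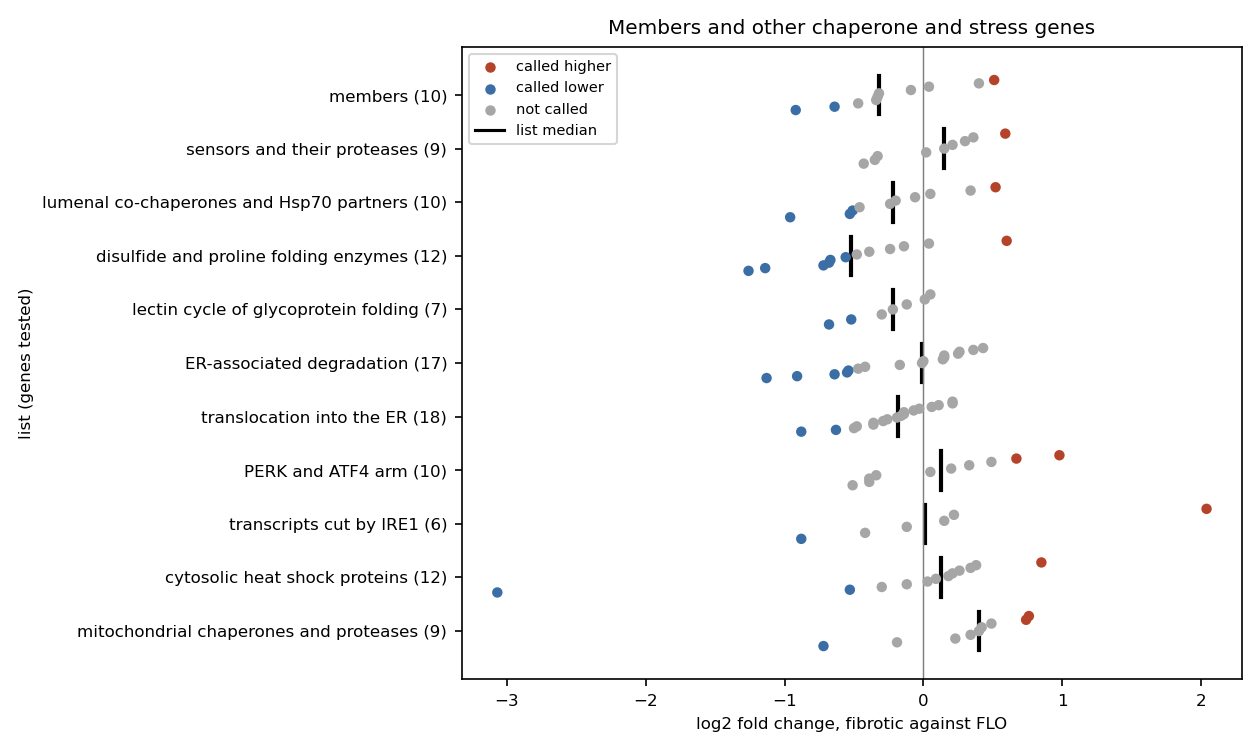
Log2 fold change (horizontal axis) of each tested gene of the members and of 10 further lists, with the number tested in brackets, called genes in colour and the list median as a line. The disulfide and proline folding enzymes have the lowest median, and 6 of their 12 genes are called lower.

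The ERSE also gave a list that is set by sequence and not by function. Of the tested genes matched to a window by symbol, 18 held an ERSE, the 4 members included. Ero1b, matched only through an older symbol, held another and is not counted (-0.14, not called). Of these 18, 6 were called lower (33.3%, against 14.0% of all tested genes) and 1 higher (5.56%, against 15.9%), with a median log2 fold change of -0.36. Over the 14 that are not members the median was -0.34, with 4 lower and 1 higher. Among these, Derl3, Calr, Syvn1, Dnajc3 and Canx belong to the wider ER lists above and were already counted there. All of them had negative values, and Derl3 and Calr were called lower. The remaining genes, outside the ER lists, had values of both signs, from -0.89 (Acacb) to 1.28 (Spats2l). The count over all 18 was added after the fit had been seen. Its lower calls dropped from 6 to 3 without fibrotic replicate 4, and to 2 with library size alone. Those called lower were Derl3 (-1.13), Creld2 (-0.92), Acacb (-0.89), Pdia6 (-0.64), Calr (-0.52) and Pan2 (-0.51), and the one called higher was Spats2l (1.28). Acacb, Pan2 and Spats2l, named after their values were seen, are not known for roles in ER folding. Pan2 was not called without FLO replicate 5 or fibrotic replicate 3 or 4.

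Creld2 and Alg12, a mannosyltransferase gene of glycan assembly, are read in opposite directions from windows that share 173 bases on chromosome 15, and the same ERSE lies in both. Alg12 differed by 0.21 (SE 0.14; edgeR, adjusted p = 0.227) against -0.92 for Creld2.

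**Figure D5:**
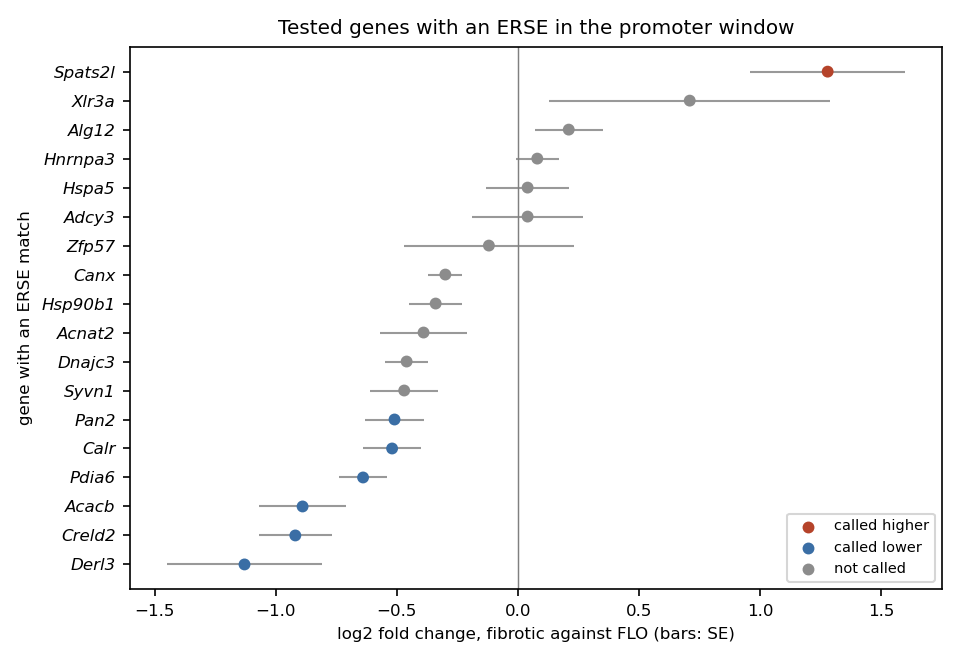
Log2 fold change with its SE (horizontal axis) for the 18 tested genes whose promoter window holds an ERSE, called genes in colour. Derl3 at -1.13 and Spats2l at 1.28 mark the ends, and Hspa5 lies near 0.

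Markers of cells that could alter these levels were set beside the results. Hepatocyte markers were abundant in every library (9 of 10 matched), with a summed level of 58200 to 94300 CPM in fibrotic and 80200 to 95900 CPM in FLO libraries. Of these 9, 3 were called lower (33.3%, against 14.0% of all tested genes) and 2 higher (22.2%, against 15.9%). Macrophage markers summed to 276 to 577 CPM in fibrotic and 224 to 255 CPM in FLO libraries, with 6 of 8 called higher, and cholangiocyte markers to 80.8 to 275 and 47.2 to 88.0 CPM, with 3 of the 5 tested called higher. Stellate cell markers summed to 227 to 340 and 205 to 289 CPM, with 1 of 8 called higher and 1 lower (12.5% each). Their part in the members' changes was not tested.

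Plasma cells and pancreatic acinar cells hold much of this machinery, and most of their listed markers were at low levels. The 10 plasma and B cell markers summed to 678 to 866 CPM in fibrotic and 210 to 411 CPM in FLO libraries, nearly all of it Sdc1, which hepatocytes also express (753 and 287 CPM). Apart from Ighm (22.1 and 7.95 CPM), Jchain and Igkc did not exceed a mean of 1.17 CPM in either group, Mzb1 had at most 7 counts and Tnfrsf17 had 0. Of 10 acinar markers Cpa1, Cpb1, Pnlip and Cel had 0 counts in all libraries, and the list, of which Cela2a alone was called higher (0.00713 to 2.26 CPM), summed to 4.02 to 7.79 CPM in fibrotic and 2.02 to 4.42 CPM in FLO libraries.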

How the data were processed

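The authors deposited raw whole-number counts per Ensembl gene for 12 mouse liver libraries, with no normalization. The submitters' processing notes name bcl2fastq, STAR 2.7.3a and mm10, and the study's methods name PISCES for its human libraries. The counter for these mouse libraries, the annotation release and any use of strand are not given in the sources used here. Totals ran from 17815568 to 24814263 counts per library. Symbols matched 51745 of 56205 identifiers.

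Groups and replicate numbers came from the sample titles. Whether mice shared cages or days is not stated. Libraries of a group differed by more than sampling noise (smallest chi-square per degree of freedom 10.9 over 30 pairs). The fit was edgeR 4.0.16 (R 4.3.3), with TMM, filterByExpr, a robust quasi-likelihood test and Benjamini-Hochberg adjustment over 13416 genes, and was tested on simulated data. Calls required an adjusted p no higher than 0.01 and a log2 fold change beyond 0.5 in size, the limits in the study's methods for human livers. SE is the absolute log2 fold change over the square root of F. Members' log2 CPM (prior count 2) were also permuted exactly over all 924 assignments of libraries to groups, two-sided.

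The members, lists and rule for naming genes were chosen with earlier results of these data known. The rule names the 10 members, 8 further genes (Ern1, Eif2ak3, Atf6, Hyou1, Dnajc3, Calr, Ddit3 and Atf4) and, per list, up to 3 called genes of largest change without overlap between groups. Alternatives were RLE, upper quartile, TMM without the 50 most counted genes, all genes with a count, a floor of 10 counts in each library, DESeq2 1.42.0, limma-voom (limma 3.58.1), the replicate number as a block, estimation without robust weights, an FDR of 0.05 with no fold limit, and leaving out each library. Library size alone and the list of genes with an ERSE were added after the data were examined. A planned list of proteins with an ER retention tail was not analysed here. Promoter windows are those of RefSeq, GRCm38.p6.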

Additional observations from a re-analysis of the deposited data

Results flagged for a closer look

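For each of the 37 named genes, the highest and lowest of the 6 libraries of a group were tested with Dixon's ratio on log2 CPM, the distance to the next library as a share of the whole spread. Of 74 sets of values 6 passed the 95% limit, where chance gives about 3.7. None of the 10 members was among them. Fibrotic replicate 4 was lowest of its group in Calr (ratio 0.721), Bloc1s1 (0.721), Derl2 (0.689) and Erlec1 (0.63), and FLO replicate 1 was highest in Ufd1 (0.682). Fibrotic replicate 4 was the lowest of its group for 29.8% and the highest for 28.5% of all tested genes, and FLO replicate 1 the highest for 21.4%. Fibrotic replicate 1 was lowest in Grpel1 (0.643).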

How the results depend on the processing

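The members called lower numbered 2 in every fit that left out a library, and the members called higher ran from 0 to 2 there. The members' median ran from -0.37 to -0.26, and the wider genes from 3 to 6 higher and from 13 to 20 lower. The members called higher were 0 with DESeq2, with RLE and with upper quartile normalization. With library size alone there were 2 members higher and 1 lower, a member median of -0.14, and 11 wider genes higher and 7 lower. At an FDR of 0.05 with no fold limit there were 2 members higher and 5 lower, and 13 wider genes higher and 33 lower. Hspa5 ran from -0.05 to 0.20 when a library was left out, and was negative without FLO replicate 4, 5 or 6 (-0.02, -0.02 and -0.05). Sdf2l1 turned to 0.08 with library size alone, to 0.03 without FLO replicate 1 and to 0.05 without fibrotic replicate 4, and reached -0.23 without fibrotic replicate 1. Relative to the median of all tested genes, the members' median lay between -0.40 and -0.28 in all fits run. A change of scaling alone could hardly move this difference.

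Titles give both groups the numbers 1 to 6, which no label ties to a shared cage or day. Same-numbered libraries' deviations correlated between -0.162 and 0.104, and 0 of 6 fibrotic libraries were closest to their own number, so the numbers were not taken as pairs. With the replicate block the members gave 1 higher and 2 lower, a median of -0.31, and the wider genes 5 and 18. Over all genes the block gave 1994 higher and 1786 lower calls.

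Among the members, Dnajb9 and Herpud1 lay close to the fold limit. Herpud1 also missed the limit on p (edgeR, adjusted p = 0.0669). Xbp1 was the only member to pass the limit on p without passing that on fold change. Counts per gene do not show Xbp1 splicing, protein or translation, and the exposure and 1 animal's sex are uncertain.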

Other observations

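Chaperones outside the ER were described in the same way. Of 9 mitochondrial chaperones and proteases, 2 were called higher (22.2%, against 15.9% of all tested genes) and 1 lower (11.1%, against 14.0%), with a median log2 fold change of 0.40. Grpel1, the nucleotide exchange factor of the mitochondrial Hsp70, rose by 0.74 (SE 0.07), from 104 to 174 CPM, and so did Clpx, a subunit of a matrix protease (0.76, SE 0.12, named after its value was seen), while Trap1, the mitochondrial Hsp90, fell by 0.72 (SE 0.08). Of 12 cytosolic heat shock genes 1 was called higher (8.33%) and 2 lower (16.7%), with a median of 0.13. The shares of calls in both lists are near the background. Hspb1, a small heat shock protein, fell from 51.5 ± 25.1 to 6.13 ± 1.84 CPM (SD, n = 6), or -3.07 on the log2 scale (SE 0.35). The constitutive Hsp90ab1 fell by 0.53, a call lost without FLO replicate 1 (-0.49) or fibrotic replicate 4 (-0.47). Hspa1a, the inducible Hsp70, was called higher at a low level (2.53 to 4.56 CPM), and shares most of its sequence with a neighbouring copy, so its count is uncertain. That copy, Hspa1b, was at 19.1 CPM in FLO and 22.2 CPM in fibrotic libraries. It was not called (0.21, adjusted p = 0.514 by edgeR). Differences between these lists and the ER genes were not tested.

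Among 6 messages known to be cut by IRE1 in other settings, 1 was called lower and 1 higher. Each is 16.7% of the list, near the 14.0% and 15.9% of all tested genes. Bloc1s1, the most regularly reported of them, fell from 37.7 ± 2.90 to 20.4 ± 4.24 CPM (SD, n = 6), or -0.88 on the log2 scale (SE 0.13). Scara3 rose from 2.65 to 10.9 CPM (2.04, SE 0.37). No single direction ran through the list, whose median was 0.01.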
